A study of Homo sapiens with 6 samples.

Results

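The 10 genes described here are the redox regulator NRF2 (gene NFE2L2), its inhibitor KEAP1, and 8 enzymes of antioxidant and glutathione metabolism, NQO1, HMOX1, GCLC, GCLM, TXNRD1, SRXN1, GPX4 and GSR. They were chosen by symbol, and all 10 were found, each as 1 of the 58273 gene rows of the expression table. RNA was sequenced from cells labelled Daudi, a B-cell line from a Burkitt lymphoma, in 3 libraries of ENO1 knockdown cells carrying a short hairpin RNA (shENO1) and 3 libraries of wild type cells. The series examined drug sensitivity after loss of ENO1, a glycolytic enzyme. No library carries a control hairpin by its label, and how the hairpin was delivered is not described there. Nothing states that replicates were grown separately, so p-values reflect only the scatter among these libraries, and that scatter may be technical. Expression is given as FPKM, the number of sequenced fragments of a gene scaled by its transcript length and by the size of the library.

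NRF2 is a transcription factor that KEAP1 holds back in unstressed cells by marking it for degradation. Oxidants and electrophiles modify cysteines of KEAP1, NRF2 accumulates, and with small MAF proteins it binds antioxidant response elements near genes for glutathione synthesis, thioredoxin recycling and detoxification. Since NRF2 is controlled largely as a protein, its activity is commonly read from the transcripts of its targets. Glutathione made by these enzymes is used by GPX4, the peroxidase that reduces lipid peroxides and so holds off ferroptosis, an iron-dependent form of cell death.

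Before the results, the libraries were compared. ENO1 stood at 212, 242 and 368 FPKM in shENO1 and at 927, 998 and 1747 FPKM in wild type, so the groups did not overlap and the knockdown matched the labels (log2 fold change -2.14, SE 0.29, limma adjusted p = 0.518 over all genes, and 0.00374 with the replicate number as a block). The summed FPKM of a library lay between 958697 and 1053890, and absolute depth is unknown, although the spacing of low values gave depths up to 1.27 times that of wild type replicate 1. Libraries sharing a replicate number deviated together from their group means across genes, with correlations of 0.312, 0.176 and 0.491 for numbers 1, 2 and 3. For number 2 this was close to the 0.144 of shENO1 replicate 2 with wild type replicate 1, so its pairing is weak. The libraries numbered 3 stood apart in both groups. Deviations cancel out within a group, so the 3 correlations are not separate, and agreement of number 3 alone raises the others on average. Of 7 B-cell markers 5 exceeded 1 FPKM in some library, with sums of 96.5 to 143 FPKM in shENO1 and 125 to 198 FPKM in wild type, mostly CD74, whereas CD79B was listed at 0 in all 6 libraries and MS4A1 did not exceed 0.101 FPKM. Of 6 myeloid markers 3 exceeded 1 FPKM, with sums of 209.7 to 508 FPKM in shENO1 and 177.5 to 499 FPKM in wild type, CD163 was at 0, and LYZ alone gave 186, 220 and 482 FPKM in shENO1 and 154, 182 and 461 FPKM in wild type. The NK list held NKG7 at 59.8 to 76.6 FPKM with KLRD1 at 0, 2 of 6 T-cell markers exceeded 1 FPKM with CD3G at 0, 4 of 4 epithelial markers were at 0, and 1 of 4 fibroblast markers exceeded 1 FPKM. Several defining B-cell markers were thus absent or low, and the cells are called by their label only.

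All 10 genes passed the filter of at least 0.5 FPKM in at least 3 libraries. GPX4 was the most abundant, at a mean of 186 FPKM over the 6 libraries, above 96.9% of the protein-coding genes tested. GSR followed at 84.0 FPKM and TXNRD1 at 76.0 FPKM, then NFE2L2 at 48.4, NQO1 at 39.7, GCLC at 32.4, KEAP1 at 28.7, GCLM at 26.7, SRXN1 at 17.3 and HMOX1 at 5.57 FPKM. In this order the ranges over the 6 libraries were apart between GPX4 and GSR, between TXNRD1 and NFE2L2, and between SRXN1 and HMOX1, and they overlapped between all other neighbours. HMOX1, at the low end, still lay above 23.2% of the coding genes tested.

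The antioxidant response element, the DNA sequence that NRF2 binds together with a small MAF protein, has the core TGACNNNGC. It was looked for on both strands in RefSeq promoter sequences (build GRCh38.p14, 250 bases before to 50 bases after a transcript start), of which 13 belonged to 8 of the 10 genes. The core was present in 4 of these 13 sequences, from KEAP1, GCLM and TXNRD1, and in 13.3% of all 35116 promoter sequences. The matches that lie wholly before the start are shown because these letters occur at an NRF2 regulator and at the targets GCLM and TXNRD1, whose values are given further on. Each is read along the gene's strand with flanks, and capitals mark the matching bases. A match is a description of the letters and not a measured binding site, and the flanking bases of the full element were not scored.

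KEAP1, chr19:10502774-10502845, minus strand: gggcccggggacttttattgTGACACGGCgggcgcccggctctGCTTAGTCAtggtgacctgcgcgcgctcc
GCLM, chr1:93909436-93909484, minus strand: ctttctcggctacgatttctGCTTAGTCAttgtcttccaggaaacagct
TXNRD1, chr12:104215660-104215708, plus strand: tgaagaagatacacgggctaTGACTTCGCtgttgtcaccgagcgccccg
TXNRD1, chr12:104286910-104286958, plus strand: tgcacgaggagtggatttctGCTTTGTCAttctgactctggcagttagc

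In GCLM the match began 34 bases before the transcript start. In KEAP1 the 2 matches began 54 and 31 bases before the downstream of its 2 starts, base 10502771 of chromosome 19. The same 9 letters, GCTTAGTCA, which hold the core on the opposite strand, occurred in KEAP1 and in GCLM. TXNRD1 has starts 99 and 102 bases downstream of a match at its upstream and its internal promoter, and a further match at the upstream promoter began 8 bases before the start and ran across it. The other windows, those of NFE2L2, NQO1, GCLC, SRXN1 and GPX4 and the upstream window of KEAP1, did not hold the core. The windows reach only 250 bases before a start, so elements farther from these genes could not be found.

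Across all genes, shENO1 and wild type were compared on log2(FPKM + 0.5) with limma, a linear model that shares the estimate of spread between genes, and a gene was called at an adjusted p under 0.05 with more than a 2-fold change. None of the 10 genes was called, and neither was any of the 17870 genes tested (0 genes, 0.0%). At an unadjusted p under 0.05 there were 0 of the 10, against 353 genes or 1.98% of all tested. With the replicate number as a block, 0 of the 10 were called, against 1 gene or 0.0056% of all, which was ENO1, and 3 of the 10, GCLM, TXNRD1 and GPX4, had an unadjusted p under 0.05, against 7.55% of all. In bulk RNA, fewer cells that express a gene and less RNA per cell cannot be told apart.

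The log2 fold changes of the 10 genes lay between -0.16 and 0.34, with a median of 0.053, against a median of -0.0036 over all genes tested. Of the 10, 7 lay above 0, against 49.2% of all genes. The 95% interval of the difference lay inside a 2-fold change in either direction for all 10 genes, taken singly and without the block. The widest interval upward, that of GCLM, reached 1.88-fold, and the lowest bound, that of HMOX1, was 0.669-fold. Values in shENO1 were above those in the wild type library of the same number in 3 of 3 pairs for GCLM, TXNRD1 and GSR, against 14.1% of all genes, and below in 3 of 3 pairs for GPX4, against 15.8%.

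**Figure D1:**
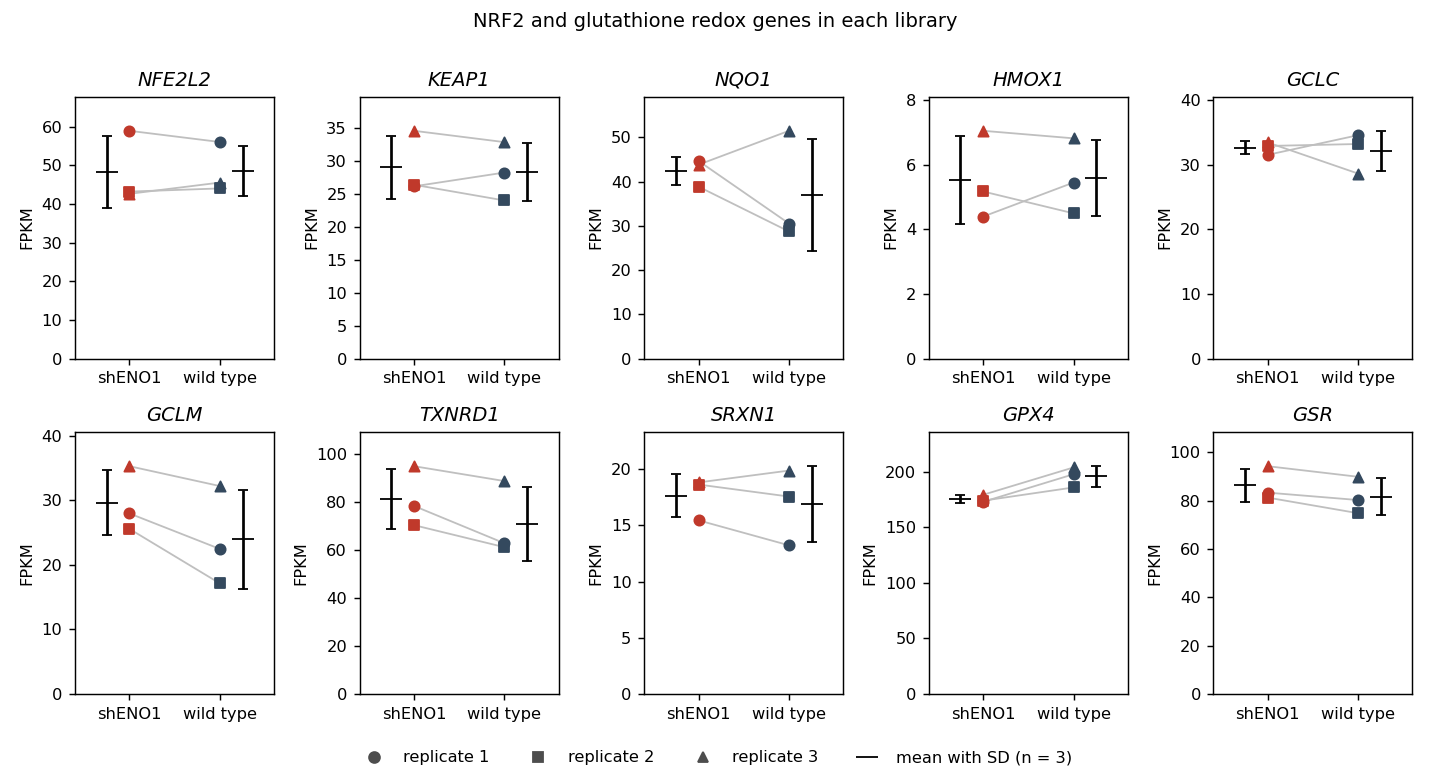
FPKM of each of the 10 genes (vertical axes, from 0) in the 3 shENO1 libraries (red, left) and the 3 wild type libraries (dark, right), with grey lines joining libraries of the same replicate number and black bars giving the mean and SD of 3 libraries. The groups overlap for 9 genes, and the GPX4 values of shENO1, up to 179 FPKM, lie below those of wild type, from 186 FPKM.

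The regulators did not separate the groups. NFE2L2 (ENSG00000116044.15, chromosome 2 of GRCh38, 177227595 to 177392697, minus strand) was at 59.0, 43.2 and 42.7 FPKM in shENO1 and at 56.1, 44.1 and 45.6 FPKM in wild type. Replicate 1 was the highest library of each group, and the means, 48.3 ± 9.26 and 48.6 ± 6.55 FPKM (SD, n = 3 each), differed by far less than the spread within either group. The log2 fold change was -0.016 (SE 0.17, 95% interval -0.42 to 0.39). The gene overlaps AGPS on the opposite strand, which was at 33.6 to 51.6 FPKM in shENO1 and 34.1 to 52.1 FPKM in wild type. The sources used here do not say whether the authors' estimates used strand, so reads from the overlap of these genes cannot be told apart. AC019080.1 and AC019080.5 overlap NFE2L2 on the same strand, where strand would not separate reads. They were at 9.26 to 13.3 and 4.94 to 7.45 FPKM in shENO1, and at 8.50 to 16.3 and 4.69 to 8.54 FPKM in wild type.

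KEAP1 (ENSG00000079999.13, chromosome 19, 10486120 to 10503741, minus strand) was at 26.1, 26.3 and 34.5 FPKM in shENO1, against 28.2, 24.0 and 32.8 FPKM in wild type. Replicate 3 was the highest in each group and the groups overlapped. Its log2 fold change was 0.033 (SE 0.18, 95% interval -0.38 to 0.45). The ratio of KEAP1 to NFE2L2 transcripts, chosen after the values were seen, was 0.442, 0.609 and 0.809 in shENO1 and 0.503, 0.544 and 0.720 in wild type. In each group the ratio was lowest in replicate 1 and highest in replicate 3, and it did not separate the groups.

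The detoxification enzymes were variable. NQO1, which reduces quinones by 2 electrons and is widely used as a readout of NRF2, lies on chromosome 16 (ENSG00000181019.12, 69706996 to 69726951, minus strand). It was at 44.7, 38.9 and 43.8 FPKM in shENO1 and at 30.5, 28.7 and 51.5 FPKM in wild type. The 3 shENO1 libraries lay close together, above wild type replicates 1 and 2 and below wild type replicate 3. The means were 42.5 ± 3.14 and 36.9 ± 12.7 FPKM (SD, n = 3 each), and the log2 fold change was 0.25 (SE 0.23, 95% interval -0.29 to 0.78, limma adjusted p = 0.9999). The size of this difference depended on each wild type library, at 0.14 without replicate 1, 0.094 without replicate 2 and 0.51 without replicate 3, where the unadjusted p was 0.00763 and the limma adjusted p 0.945.

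HMOX1, which opens the haem ring and releases iron, is encoded on chromosome 22 (ENSG00000100292.16, 35380361 to 35394214, plus strand). It was at 4.40, 5.18 and 7.06 FPKM in shENO1 and at 5.45, 4.50 and 6.82 FPKM in wild type. The groups overlapped fully, with replicate 3 highest in each. The log2 fold change was -0.018 (SE 0.24, 95% interval -0.58 to 0.54).

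The 2 subunits of glutamate-cysteine ligase, the rate-limiting enzyme of glutathione synthesis, differed in how they varied. GCLC, the catalytic subunit (ENSG00000001084.10, chromosome 6, 53497341 to 53616970, minus strand), was at 31.5, 32.9 and 33.4 FPKM in shENO1 and at 34.6, 33.2 and 28.6 FPKM in wild type. It was the steadiest of the 10 genes, with a coefficient of variation of 6.44% over the 6 libraries. Its log2 fold change was 0.026 (SE 0.13, 95% interval -0.27 to 0.33).

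GCLM, the modifier subunit that raises the efficiency of GCLC (ENSG00000023909.9, chromosome 1, 93885205 to 93909456, minus strand), was the most variable, with a coefficient of variation of 24.6%. It was at 27.9, 25.5 and 35.3 FPKM in shENO1, against 22.4, 17.1 and 32.2 FPKM in wild type. Each shENO1 library was above the wild type library of its number, while wild type replicate 3 was above shENO1 replicates 1 and 2, so the groups overlapped. The means were 29.6 ± 5.06 and 23.9 ± 7.64 FPKM (SD, n = 3 each), with the largest log2 fold change of the 10 genes, 0.34 (SE 0.25, limma adjusted p = 0.9999). With the replicate block the SE was 0.10 and the unadjusted p 0.0203, but the adjusted p over all genes was 0.623. Leaving out wild type replicate 3 gave a log2 fold change of 0.57 for GCLM, whereas leaving out wild type replicate 2 gave 0.12 and leaving out shENO1 replicate 3 gave 0.20. The ratio of GCLM to GCLC, chosen after the values were seen, was 0.887, 0.777 and 1.05 in shENO1 and 0.649, 0.515 and 1.12 in wild type, overlapping between the groups.

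TXNRD1, the cytosolic thioredoxin reductase, is a selenoprotein that hands electrons of NADPH to thioredoxin (ENSG00000198431.15, chromosome 12, 104215779 to 104350305, plus strand). It was at 78.3, 70.3 and 94.9 FPKM in shENO1, against 62.8, 61.1 and 88.7 FPKM in wild type. The shENO1 value was the higher in 3 of 3 pairs, and wild type replicate 3 was above shENO1 replicates 1 and 2. The log2 fold change was 0.20 (SE 0.19, 95% interval -0.24 to 0.65), with pair differences of 0.32, 0.20 and 0.097. EID3, which lies within it on the same strand, was at 4.18 to 5.51 FPKM in shENO1 and at 4.65 to 5.30 FPKM in wild type. The pseudogene RPL18AP3, which overlaps TXNRD1 on the same strand, was at 4.09 to 7.28 FPKM in shENO1 and at 6.14 to 8.24 FPKM in wild type. Among wild type libraries, leaving out replicate 1, 2 or 3 gave log2 fold changes of 0.13, 0.11 and 0.38, and leaving out shENO1 replicate 3 gave 0.087. With the replicate block the SE was 0.065, the unadjusted p 0.0242 and the adjusted p 0.635.

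SRXN1, sulfiredoxin, repairs over-oxidised peroxiredoxins (ENSG00000271303.1, chromosome 20, 646615 to 653370, minus strand). It was at 15.5, 18.6 and 18.8 FPKM in shENO1 and at 13.2, 17.6 and 19.9 FPKM in wild type. Replicate 1 was the lowest of each group and the groups overlapped, with a log2 fold change of 0.074 (SE 0.19, 95% interval -0.37 to 0.52). A coding gene that overlaps it on the same strand, AL121758.1, reached at most 0.136 FPKM.

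The enzymes that recycle and use glutathione were the most abundant of the set. GSR, glutathione reductase, returns oxidised glutathione to its reduced form with NADPH (ENSG00000104687.12, chromosome 8, 30678061 to 30727999, minus strand). It was at 83.3, 81.3 and 94.3 FPKM in shENO1 and at 80.3, 74.8 and 89.9 FPKM in wild type. The shENO1 library was the higher in each pair, by 0.054, 0.12 and 0.068 on the log2 scale, and the groups overlapped. The log2 fold change was 0.080 (SE 0.13, 95% interval -0.21 to 0.37), and its size rested on single libraries. Leaving out shENO1 replicate 2 or 3 gave 0.12 and 0.015, and leaving out wild type replicate 2 or 3 gave 0.020 and 0.15.

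GPX4, a selenoprotein and the central enzyme of ferroptosis defence (ENSG00000167468.16, chromosome 19, 1103926 to 1106791, plus strand), was the 1 gene of the 10 whose groups did not overlap. It was at 173, 174 and 179 FPKM in shENO1 and at 198, 186 and 204 FPKM in wild type. All 3 shENO1 libraries lay below all 3 wild type libraries, and the shENO1 libraries varied less. The means were 176 ± 3.41 and 196 ± 9.16 FPKM (SD, n = 3 each), so shENO1 held 89.5% of the wild type level. Over all genes, 3.28% did not overlap with shENO1 lower and 2.71% with shENO1 higher, where the 10 held 1 and 0 genes.

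The test across all genes did not call GPX4, at a log2 fold change of -0.16 (SE 0.10, 95% interval -0.39 to 0.079, limma adjusted p = 0.9999). The exact two-sided permutation p was 0.1, the smallest that 3 against 3 libraries allow. Any gene whose groups do not overlap gives this value, so it adds nothing to the lack of overlap. With the replicate block the SE was 0.052, the unadjusted p 0.0272 and the adjusted p 0.635. GPX4 oxidises glutathione that GSR then reduces again. The ratio of GPX4 to GSR, chosen after the values were seen, was 2.08, 2.14 and 1.90 in shENO1 and 2.47, 2.49 and 2.27 in wild type, without overlap. GPX4 alone did not overlap and GSR was the higher in shENO1 in each pair, so the ratio adds nothing separate. The share of other gene pairs whose ratios do not overlap was not computed.

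**Figure D2:**
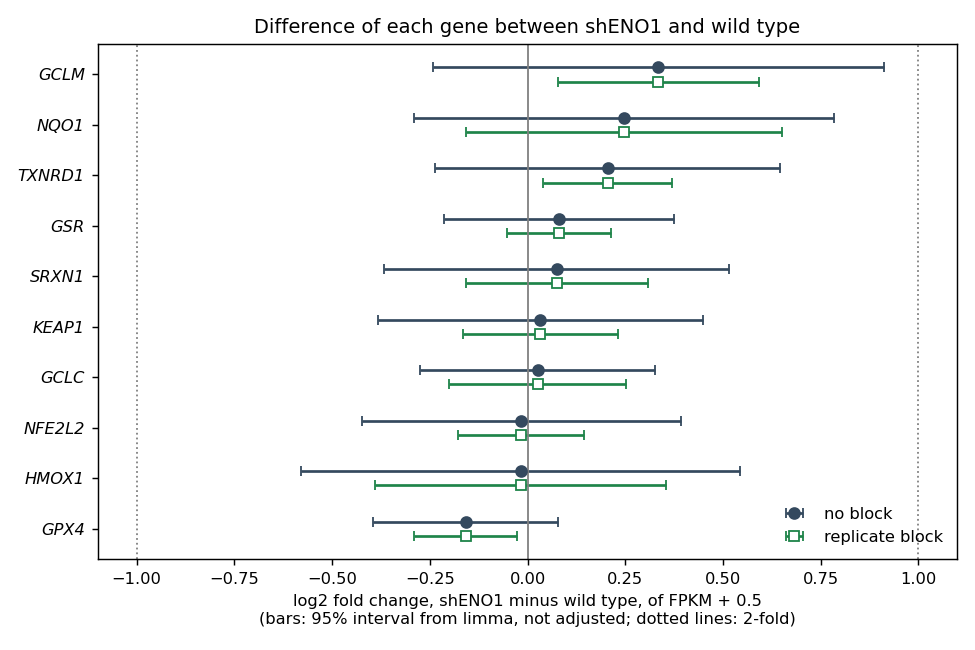
Log2 fold change of each gene, shENO1 minus wild type, on the scale of FPKM + 0.5 (horizontal axis), with unadjusted 95% intervals from limma without the block (filled circles) and with the replicate block (open squares). All intervals lie inside the dotted lines at a 2-fold change, and with the block those of GCLM, TXNRD1 and GPX4 do not cross 0.

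The order of the libraries within a group was shared by many of the 10 genes. Replicate 3 was the highest library in both groups for 7 of the 10 (KEAP1, HMOX1, GCLM, TXNRD1, SRXN1, GPX4 and GSR), against 26.4% of all genes tested. NFE2L2 was highest in replicate 1 of both groups, as were 19.9% of all genes. Replicate 2 was the lowest in both groups for 4 of the 10 (NQO1, GCLM, TXNRD1 and GSR), against 11.4% of all genes. LYZ and ENO1 were also highest in the libraries numbered 3 of each group, and the part of these differences in the values of the 10 genes was not tested.

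Profiles centred on each gene's mean were compared over the 6 libraries by their root mean square difference on the log2 scale. KEAP1 and HMOX1 were nearest to each other, at 0.083, and KEAP1 was also nearest to GSR, at 0.089, and to TXNRD1, at 0.13. TXNRD1 was the nearest gene to NQO1, at 0.13, and to GCLM, at 0.14. NFE2L2 lay farthest from the others, its nearest gene being GCLC at 0.20.

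**Figure D3:**
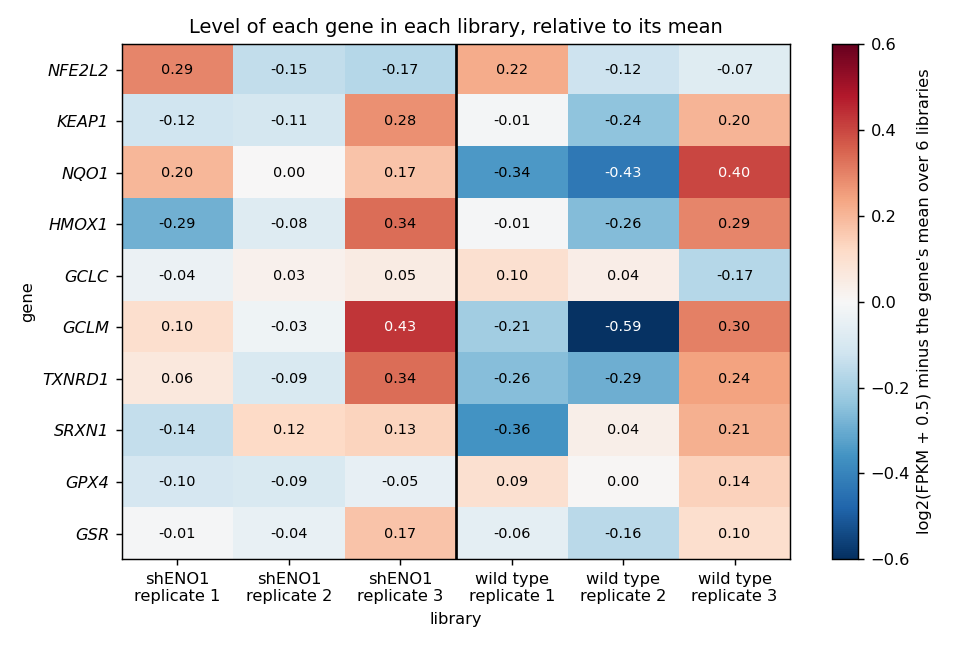
Log2(FPKM + 0.5) of each gene in each library minus the gene's mean over 6 libraries (colour and printed value), with shENO1 libraries left and wild type libraries right of the black line. Wild type replicate 2 has the lowest value of GCLM, at -0.59, and replicate 3 is above the mean in both groups for KEAP1, NQO1, HMOX1, GCLM, TXNRD1, SRXN1 and GSR.

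Other genes of these pathways were described from 7 lists drawn up by role, which share some genes. Leaving out the 10, they held 102 distinct genes that passed the filter, with a median log2 fold change of 0.020. Of these 0 were called with or without the block. At an unadjusted p under 0.05 there were 3 (EPHX1, TRIM16 and TXNIP), or 2.94%, against 1.98% of all genes, and 11 with the block, or 10.8%, against 7.55%. The groups did not overlap for 5, or 4.90%, against 5.99% of all genes, with EPHX1, TXNIP and IDH1 higher in shENO1 and TRIM16 and ABCC1 lower. ABCC1 was named after its values were seen. The genes whose values follow are the 2 per list with the smallest p in these same data, which favours groups that do not overlap. Over all genes, 14.1% were higher and 15.8% lower in shENO1 in 3 of 3 pairs. By list, the counts higher and lower were 1 and 5 of 14 circuit genes and 2 and 2 of 9 other targets. They were 5 and 3 of 21 glutathione genes and 6 and 1 of 19 thioredoxin, peroxiredoxin and dismutase genes. For ferroptosis, NADPH and selenoprotein genes they were 2 and 2 of 18, 5 and 3 of 14, and 1 and 1 of 9.

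Of 14 tested genes of the NRF2 and KEAP1 circuit 5 lay above 0 and 9 below, with a median of -0.054, and 0 passed at an unadjusted p under 0.05 with or without the block. CUL3, the scaffold of the ubiquitin ligase that KEAP1 serves, was at 29.4, 28.7 and 36.7 FPKM in shENO1 and at 29.4, 33.5 and 40.4 FPKM in wild type. BACH2, a transcriptional repressor of B cells that pairs with small MAF proteins, was low, at 3.27, 0.994 and 1.43 FPKM in shENO1 and at 1.22, 2.07 and 0.458 FPKM in wild type. Neither gene separated the groups.

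Among 16 other NRF2 targets 9 passed the filter, 5 above 0 and 4 below, with a median of 0.052. AKR1B10, AKR1C1, AKR1C2, AKR1C3, ABCC3, AIFM2 and ME1 did not pass the filter, the highest value among them being 0.464 FPKM. EPHX1, an epoxide hydrolase, was at 20.2, 20.4 and 19.4 FPKM in shENO1, against 14.4, 14.3 and 15.8 FPKM in wild type, with no overlap (log2 fold change 0.42, SE 0.13, limma adjusted p = 0.9999). TRIM16 was at 10.9, 12.02 and 9.84 FPKM in shENO1 and at 14.6, 15.9 and 12.9 FPKM in wild type, also with no overlap (log2 fold change -0.39, SE 0.16, limma adjusted p = 0.9999).

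In the list of glutathione synthesis and use, 12 of 21 tested genes lay above 0 and 9 below, with a median of 0.046. SLC7A11, the transporter that brings in cystine for glutathione, was at 13.6, 11.97 and 8.70 FPKM in shENO1, against 22.1, 17.7 and 12.2 FPKM in wild type. It was the lower in shENO1 in 3 of 3 pairs, although wild type replicate 3 was below shENO1 replicate 1. The log2 fold change was -0.56 (SE 0.26, limma adjusted p = 0.9999), and with the block the unadjusted p was 0.00128 and the adjusted p 0.536. CHAC1, which degrades glutathione, was at 4.57, 3.88 and 4.83 FPKM in shENO1 and at 5.99, 4.60 and 5.52 FPKM in wild type, with overlap.

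Of 19 tested thioredoxin, peroxiredoxin and dismutase genes 14 lay above 0 and 5 below, with a median of 0.064. TXNIP, which binds and inhibits thioredoxin and restrains glucose uptake, was at 16.6, 10.9 and 12.4 FPKM in shENO1, against 7.98, 7.65 and 7.24 FPKM in wild type. Its groups did not overlap, and its log2 fold change of 0.74 (SE 0.19) was the largest of the 102 genes, with an unadjusted p of 0.00554 and a limma adjusted p of 0.9999. Catalase, CAT, was at 165, 163 and 139 FPKM in shENO1 and at 134, 142 and 130 FPKM in wild type, higher in 3 of 3 pairs and overlapping between groups.

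The ferroptosis list had 9 of 18 tested genes above 0 and 9 below, with a median of 0.0067, and includes SLC7A11 again. The iron exporter SLC40A1 was at 5.59, 4.36 and 4.20 FPKM in shENO1 and at 4.63, 4.39 and 3.35 FPKM in wild type, overlapping between groups. AIFM2, which reduces coenzyme Q as a defence parallel to GPX4, and the lipoxygenases ALOX5 and ALOX15 were below the filter. Neither GPX4 nor SLC7A11 was called. Both had the lower value in shENO1 in 3 of 3 pairs, as did 15.8% of all genes. Of the 18 tested genes of the list, 2 were lower in 3 of 3 pairs, SLC7A11 among them, and 2 were higher.

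Genes of NADPH supply split evenly, 7 above 0 and 7 below of 14 tested, with a median of 0.024. With the block 4 of the 14 had an unadjusted p under 0.05, against 7.55% of all genes. Each other list held 0 to 2 such genes. Of the 4, ME3 was lower in shENO1 and the others, IDH1 among them, were higher. IDH1, the cytosolic isocitrate dehydrogenase, was at 141, 125 and 124 FPKM in shENO1, against 112, 114 and 109 FPKM in wild type, with no overlap. ME3, a mitochondrial malic enzyme, was at 11.1, 17.3 and 11.5 FPKM in shENO1 and at 16.8, 23.0 and 16.8 FPKM in wild type, lower in 3 of 3 pairs. The limma adjusted p was 0.9999 for each gene, and with the block 0.561 for ME3 and 0.609 for IDH1.

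Of 9 tested genes for making selenoproteins, the class of GPX4 and TXNRD1, 5 lay above 0 and 4 below, with a median of 0.0068. SEPHS1 was at 33.1, 31.9 and 49.6 FPKM in shENO1 and at 29.04, 25.02 and 46.2 FPKM in wild type. SCLY, which releases selenium from selenocysteine, was at 36.0, 30.6 and 45.6 FPKM in shENO1 and at 41.7, 36.6 and 45.7 FPKM in wild type. Both genes overlapped between the groups.

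**Figure D4:**
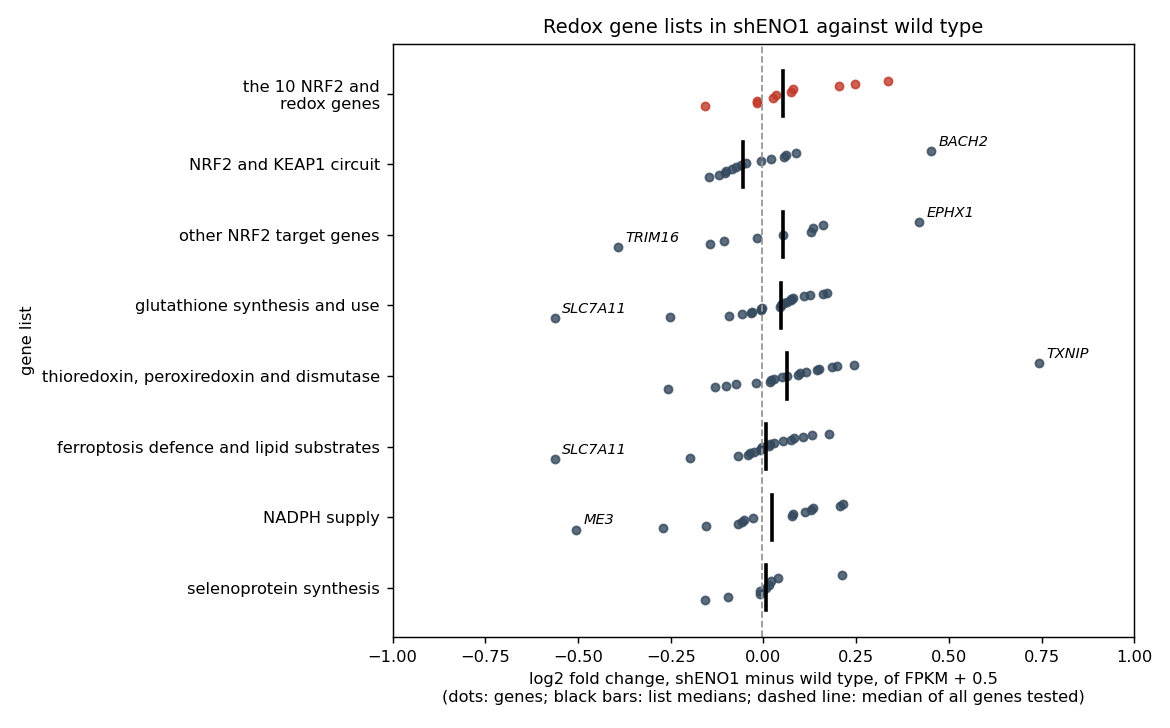
Log2 fold change, shENO1 minus wild type, of the 10 genes (red) and of the tested genes of 7 lists without them (dark dots), with black bars for medians and a dashed line for the median of all genes tested, -0.0036. List medians run from -0.054 to 0.064, and TXNIP, at 0.74, and SLC7A11, at -0.56, lie at the ends.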

How the data were processed

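The authors aligned reads with STAR and estimated FPKM with Cufflinks and Cuffnorm on GRCh38 (versions, library scaling and strand not given in the sources used here), and the deposited table holds 1 FPKM value per gene and library. The study called genes with DESeq2 on reads, which were not used here. It reported genes that passed the same fold change and adjusted p limits, and the reason for the difference from the fit here was not tested. FPKM divides by transcript length and holds no absolute depth. Of the gene identifiers 58010 were found in GENCODE release 29, the source of coordinates.

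Genes reaching 0.5 FPKM in 3 or more of the 6 libraries, 17870 in all, were compared as log2(FPKM + 0.5), which understates changes of low genes, with limma 3.58.1 in R 4.3.3 (intensity trend, no covariate, two-sided, Benjamini-Hochberg over all genes tested). Numbers in the titles gave a replicate block, a choice that rests mainly on the libraries numbered 3. Same-numbered libraries deviated together from their group means (correlations across genes of 0.312, 0.176 and 0.491 for numbers 1, 2 and 3). Within a group the deviations of a gene cancel out, so these 3 correlations are not separate support. Agreement of the libraries numbered 3 alone raises, on average, the correlations among numbers 1 and 2. Libraries of different numbers gave -0.390 to 0.144, the highest for shENO1 replicate 2 with wild type replicate 1, close to the value for number 2. The labels do not state this pairing, and the block leaves 2 residual degrees of freedom, against 4.

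Members, lists and thresholds were chosen with earlier results of these data known. The genes named are the 10, ENO1, the 2 genes per list whose p was smallest, and each gene's nearest profile among the 10. Relative depth was the most frequent ratio of low values, within 0.02 log2 units for only 10.5% to 15.2% of 2857 to 3231 genes, so no reads were rebuilt. Alternatives changed the pseudocount, filter, scaling, block and libraries.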

Additional observations from a re-analysis of the deposited data

How the results depend on the processing

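The number of genes called over all genes was 0 and became 1, ENO1, with the replicate block (log2 fold change -2.14, limma adjusted p = 0.00374) and without both libraries numbered 3 (-2.08, 0.0199). Of the 10 redox genes 0 were called under any of the 15 alternatives, in which limma adjusted p-values ran from 0.623 to 1.0. The direction held in all 15 for NQO1, GCLM, TXNRD1, GSR and GPX4, and for 12 of the 13 named list genes. It turned for the other 5 of the 10, whose log2 fold changes were all near 0. The block and the changed filters leave each log2 fold change as it was, so they could not turn a direction. The list genes were picked for the smallest p in these same data, which favours a steady direction. After scaling all libraries to 1 common FPKM total NFE2L2 was at 0.026 and HMOX1 at 0.021, and without both libraries numbered 3 NFE2L2 was at 0.023 and GCLC at -0.072. Leaving out 1 library at a time gave -0.17 to 0.091 for NFE2L2, -0.10 to 0.14 for KEAP1, -0.19 to 0.12 for HMOX1, -0.054 to 0.080 for GCLC, -0.087 to 0.20 for SRXN1, 0.094 to 0.51 for NQO1, 0.12 to 0.57 for GCLM, 0.087 to 0.38 for TXNRD1, 0.015 to 0.15 for GSR, -0.20 to -0.13 for GPX4 and -0.23 to 0.0017 for CUL3. The cause was not tested. Without both libraries numbered 3 the log2 fold change was 0.49 for NQO1, 0.44 for GCLM and 0.26 for TXNRD1, each with an adjusted p of 0.986. GPX4 was not called under any alternative, and the size of difference that 3 libraries a group can detect was not computed.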
